A study of Mus musculus with 4 samples.

Results

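The nuclear genes for the mitochondrial respiratory chain and the ATP synthase were followed in luminal epithelium (LE), the cell layer that lines the uterine cavity, and in the stroma beneath it. Genes were chosen by symbol alone, as the numbered Nduf subunits of complex I, Sdh of complex II, Uqcr of complex III, the Cox4 to Cox8 subunits of complex IV and Atp5 of the ATP synthase (complex V). The rule uses no measured value, but it was set with earlier results of these data known. Rows that join several gene symbols were left out. The rule found 81 of the 23235 genes in the tables. Complex I gave 36 of them, complex II 4, complex III 8, complex IV 18 and complex V 15.

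The series compared mouse uteri labelled as a uterine-specific Msx1 and Msx2 knockout (both genes encode homeobox transcription factors) with floxed control uteri on day 4 of pseudopregnancy, after mating with a vasectomized male. The 4 libraries were LE of the Msx1d/d/Msx2d/d genotype, LE of the Msx1f/f/Msx2f/f genotype, stroma of Msx1d/d/Msx2d/d and stroma of Msx1f/f/Msx2f/f, each captured by laser microdissection and sequenced as total RNA depleted of ribosomal RNA. The design text names 1 mouse of each genotype, so animal and genotype cannot be told apart. The promoter that drives the deletion and the age of the mice are not given in the sources used here. With 1 library per group there was no replicate and no spread within a group, no test across samples was made, and higher and lower describe these libraries only.

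The respiratory chain passes electrons from NADH (complex I) and succinate (complex II) through complex III to complex IV, where oxygen is reduced, and the ATP synthase uses the resulting proton gradient. Complexes I, III, IV and V combine subunits made from nuclear genes with subunits made from mitochondrial DNA, while complex II is made from nuclear genes alone. Several complex IV subunits exist as paired isoforms, one found in most tissues and one known from striated muscle, lung or testis. A search by symbol found 0 genes of mitochondrial DNA in the deposited data, so they were not analysed here.

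The libraries differed widely in depth, which was estimated approximately from the step size of the RPKM values (reads scaled by transcript length and by mapped reads). The estimates were 90.4 M reads for LE labelled knockout, 6.36 M for LE control, 62.3 M for stroma labelled knockout and 42.5 M for stroma control. The LE pair thus differed 14.2-fold in depth and the stroma pair 1.47-fold. A transcript with 1 kb of effective length reached 0.0111 RPKM with 1 read in LE labelled knockout, against 0.157 RPKM in LE control. All 10 epithelial markers were at 1 RPKM or more in both LE libraries and 0 of 10 in either stroma library, and all 10 stromal markers were at 1 RPKM or more in both stroma libraries. Msx1 was at 13.6 RPKM in LE labelled knockout against 23.2 RPKM in LE control. Msx2 was at 2.06 RPKM in LE labelled knockout against 1.31 RPKM in LE control, which goes against the label. In stroma both genes were under 0.2 RPKM, so they check nothing there. The deleted exons are not given in the sources used here, and every genotype difference below is between libraries so labelled.

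Genes of the respiratory chain and ATP synthase were among the more abundant transcripts in both compartments. Their median level was 14.0 RPKM in LE labelled knockout, 11.1 RPKM in LE control, 7.80 RPKM in stroma labelled knockout and 6.94 RPKM in stroma control. Of the 81 genes, 73 were at 1 RPKM or more in all 4 libraries. Members at 1 RPKM or more, 74 in LE control and 75 in each other library, were ranked among all genes at that level. Their median percentile was 90.7 in LE labelled knockout, 90.7 in LE control, 89.3 in stroma labelled knockout and 88.5 in stroma control. Together the members took 1.37% of the summed RPKM in LE labelled knockout, 1.69% in LE control, 1.19% in stroma labelled knockout and 0.985% in stroma control. Their rank in the library therefore differed little between compartments, although their median RPKM was higher in LE.

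The complexes stood at different levels. Over all genes of each complex, tissue isoforms included, ATP synthase genes had the highest median. It was 29.0 RPKM in LE labelled knockout, 24.4 in LE control, 18.2 in stroma labelled knockout and 16.1 in stroma control. Complex I and complex II genes had lower medians, complex I at 10.3 RPKM in LE labelled knockout, 8.36 in LE control, 6.01 in stroma labelled knockout and 5.79 in stroma control. Complex II had 10.3 RPKM in LE labelled knockout, 9.04 in LE control, 6.62 in stroma labelled knockout and 6.60 in stroma control. Complex III had 14.4 RPKM in LE labelled knockout, 14.7 in LE control, 9.12 in stroma labelled knockout and 8.36 in stroma control. Complex IV, which holds the tissue isoforms, had 14.3 RPKM in LE labelled knockout, 12.6 in LE control and 7.18 in each stroma library. For comparison, the genes that assemble these complexes had medians between 0.990 and 1.59 RPKM, enzymes of pyruvate dehydrogenase and the TCA cycle between 4.18 and 4.65 RPKM, and cytosolic ribosomal protein symbols between 74.4 and 93.0 RPKM. The last list, taken by symbol, holds 93 genes, among them 10 S6 kinases, 2 named pseudogenes and Rps19bp1, which are not ribosomal proteins. Levels of different genes are compared on RPKM, which is per length, but with short genes the length correction is itself uncertain.

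**Figure D1:**
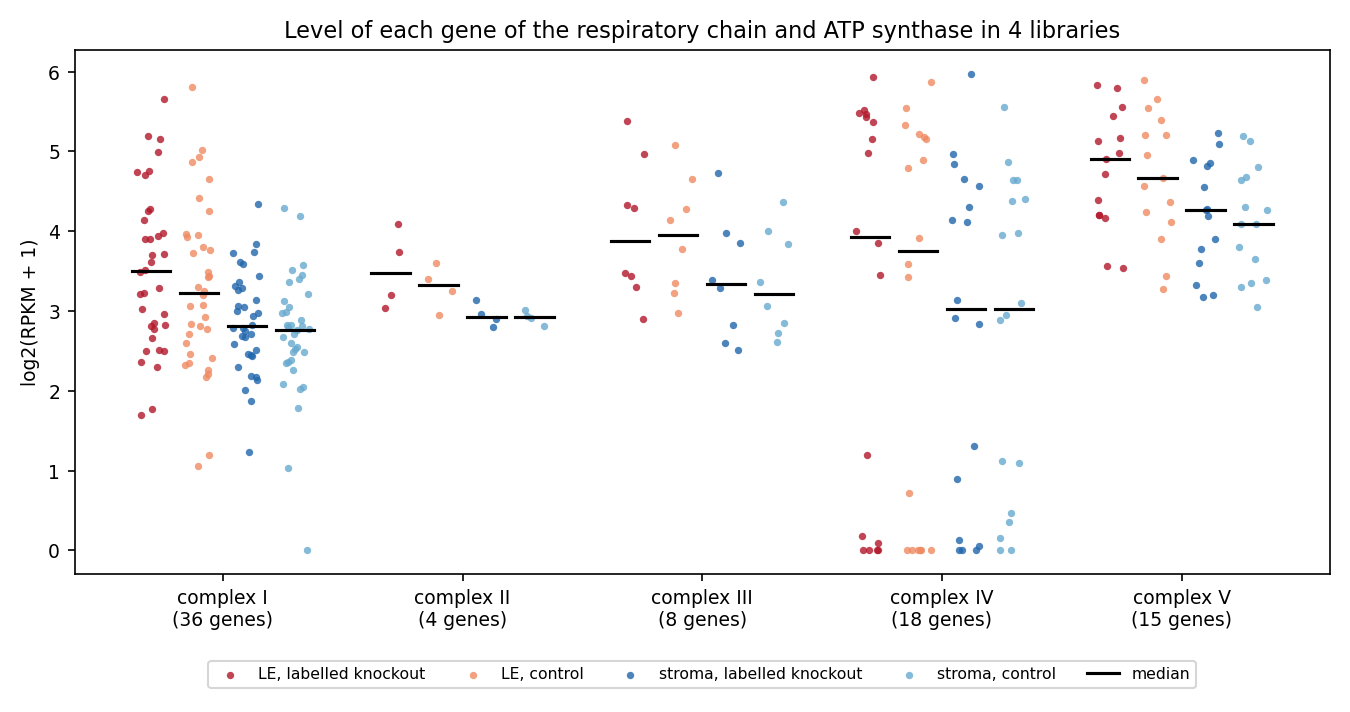
Each point is 1 gene of the respiratory chain or ATP synthase, its height log2(RPKM + 1), in columns by complex and colour by library (LE labelled knockout, LE control, stroma labelled knockout, stroma control), with a black bar for the median. On the deposited scale the medians of LE lie above those of stroma in every complex, and complex IV has a separate low group near 0 formed by its tissue isoforms.

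Within the ATP synthase, Atp5b, the catalytic beta subunit of the F1 head, was at 56.2 RPKM in LE labelled knockout, 49.7 in LE control, 36.5 in stroma labelled knockout and 34.0 in stroma control. Atp5k, subunit e in the membrane part, was at 46.0 RPKM in LE labelled knockout, 58.7 in LE control, 33.0 in stroma labelled knockout and 35.7 in stroma control. Atp5k also has 1 named pseudogene in a reference list of gene names, and counting could have split reads between near-identical copies. Atp5a1, the alpha subunit that pairs with beta in F1, stood closer across compartments, at 30.7 and 30.0 RPKM in labelled knockout and control LE and 27.9 and 23.9 RPKM in labelled knockout and control stroma. At the low end of complex V, Atp5j, a stalk subunit whose locus overlaps Gabpa, was at 10.8 and 8.69 RPKM in labelled knockout and control LE and 8.02 and 8.82 RPKM in labelled knockout and control stroma.

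Complex II had the narrowest range of levels. Its catalytic flavoprotein Sdha was at 8.17 RPKM in LE labelled knockout, 6.70 in LE control, 6.77 in stroma labelled knockout and 7.05 in stroma control. The iron-sulfur subunit Sdhb was at 12.4 and 9.59 RPKM in labelled knockout and control LE and 6.48 and 6.51 RPKM in labelled knockout and control stroma. The membrane anchor Sdhc was at 7.22 and 8.49 RPKM in labelled knockout and control LE and 7.81 and 6.69 RPKM in labelled knockout and control stroma, so its compartments overlapped. Its partner anchor Sdhd was at 16.0 and 11.1 RPKM in labelled knockout and control LE and 5.97 and 6.00 RPKM in labelled knockout and control stroma, with both LE values above both stroma values. The 4 genes thus lay within 5.97 to 16.0 RPKM in all 4 libraries.

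In complex III the hinge subunit Uqcrh was highest, at 40.8 RPKM in LE labelled knockout, 32.9 in LE control, 25.6 in stroma labelled knockout and 19.6 in stroma control. The reference list of gene names also holds 2 named Uqcrh pseudogenes. The Rieske iron-sulfur protein Uqcrfs1 was at 10.1 and 9.17 RPKM in labelled knockout and control LE and 5.05 and 5.10 RPKM in labelled knockout and control stroma. The core protein Uqcrc1 hardly separated the compartments, at 8.88 and 8.35 RPKM in labelled knockout and control LE and 8.74 and 7.39 RPKM in labelled knockout and control stroma.

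In both LE libraries complex I spanned the widest RPKM range among the complexes outside IV. In stroma complex V spanned more, at 8.02 to 36.5 RPKM in the labelled knockout, against 1.35 to 19.3 RPKM for complex I. Within complex I, Ndufc2, an accessory subunit of the membrane arm, was highest in LE. It was at 49.5 RPKM in the labelled knockout and 55.1 RPKM in the control. Ndufa4, counted in complex I by its symbol although its protein is now placed with complex IV, was highest in stroma, at 19.3 RPKM in the labelled knockout and 18.6 RPKM in the control. Ndufa11, a membrane-arm subunit, was the lowest of the complex, apart from a 0 listed for Ndufs5 in stroma control, at 2.24 RPKM in LE labelled knockout, 1.08 in LE control, 1.35 in stroma labelled knockout and 1.05 in stroma control. In LE control its level rested on about 2 estimated reads, so its position there is hardly measured. The catalytic core subunits were moderate: Ndufv1, which binds NADH, was at 4.72 and 4.32 RPKM in labelled knockout and control LE and 5.44 and 5.54 RPKM in labelled knockout and control stroma.

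Genes for the tissue isoforms were low or listed at 0. The 7 members under 2 RPKM in all 4 libraries were Cox4i2, Cox6a2, Cox6b2, Cox7a1, Cox7b2, Cox8b and Cox8c, all of complex IV. Cox7b2 and Cox8c were listed at 0 in all 4 libraries. Cox6a2, the form of striated muscle, was listed at 0 in both LE libraries and was at 0.0372 RPKM in stroma labelled knockout, about 1 estimated read, and 0.111 RPKM in stroma control, about 2. Cox8b, another muscle form, was at 0.0673 RPKM in LE labelled knockout, listed at 0 in LE control, and at 0.0946 and 0.278 RPKM in stroma labelled knockout and control, where the last value stood for about 2 reads. The skeletal muscle markers Ckm, Acta1, Myh4 and Tnnt3 summed to 0.123 RPKM in LE labelled knockout, 0.0553 in LE control, 0.306 in stroma labelled knockout and 0.162 in stroma control.

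Cox7a1, the muscle form of subunit 7a, was at 1.29 RPKM in LE labelled knockout and listed at 0 in LE control, and was listed at 0 in stroma labelled knockout and at 0.389 RPKM in stroma control. Its transcript is 393 nt long, and 3 reads of it would have given 2.44 RPKM in LE control, more than the level in the deeper library. The LE difference was therefore not detectable at this depth. The stroma value stood for about 3 reads, so neither pair settles a difference.

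A pair of isoforms was present in stroma at a small share. Cox4i2, known from lung, was listed at 0 in both LE libraries and was at 0.853 RPKM in stroma labelled knockout and 1.18 RPKM in stroma control, where it made 2.74% of the summed Cox4i RPKM in the labelled knockout and 3.99% in the control. In LE control 3 reads would have given 0.895 RPKM, so only the deeper LE library, where 3 reads gave 0.0630 RPKM, limits it well below the stroma level. Cox6b2, known from testis, was at 0.128 RPKM in LE labelled knockout, 0.644 in LE control, 1.48 in stroma labelled knockout and 1.14 in stroma control, a share of the Cox6b sum of 0.293% in LE labelled knockout, 1.62% in LE control, 6.12% in stroma labelled knockout and 5.45% in stroma control. The LE control value stood for about 2 reads. Markers of pericytes and smooth muscle, a cell type the stroma capture could hold, summed to 0.607 RPKM in LE labelled knockout, 4.32 in LE control, 48.1 in stroma labelled knockout and 46.5 in stroma control. In stroma 5 of the 7 were at 1 RPKM or more in each library, and in LE 0 of 7 in the labelled knockout and 2 of 7 in the control, with Rgs5 listed at 0 in LE control. Their part in the Cox4i2 and Cox6b2 levels was not tested.

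The common forms carried nearly all of the remaining signal. Cox4i1 was at 43.3 and 45.7 RPKM in labelled knockout and control LE and 30.3 and 28.3 RPKM in labelled knockout and control stroma, and Cox6a1 at 42.2 and 36.3 RPKM in labelled knockout and control LE and 24.2 and 24.0 RPKM in labelled knockout and control stroma. Cox8a was at 44.9 and 35.3 RPKM in labelled knockout and control LE and 18.8 and 20.1 RPKM in labelled knockout and control stroma, and took at least 98.6% of the Cox8 sum in each library. Of the 3 genes for the identical mature c subunit of the ATP synthase rotor, Atp5g2 was the largest in every library, at 45.7% and 54.9% of the sum in labelled knockout and control LE and 47.9% and 51.3% in labelled knockout and control stroma. Atp5g1 took 27.5% in LE labelled knockout against 15.1% in LE control, and 19.6% in stroma labelled knockout against 18.0% in stroma control. Its level was 17.4 RPKM in LE labelled knockout and 9.86 RPKM in LE control, and it was 11.1 RPKM in stroma labelled knockout and 9.47 RPKM in stroma control.

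**Figure D2:**
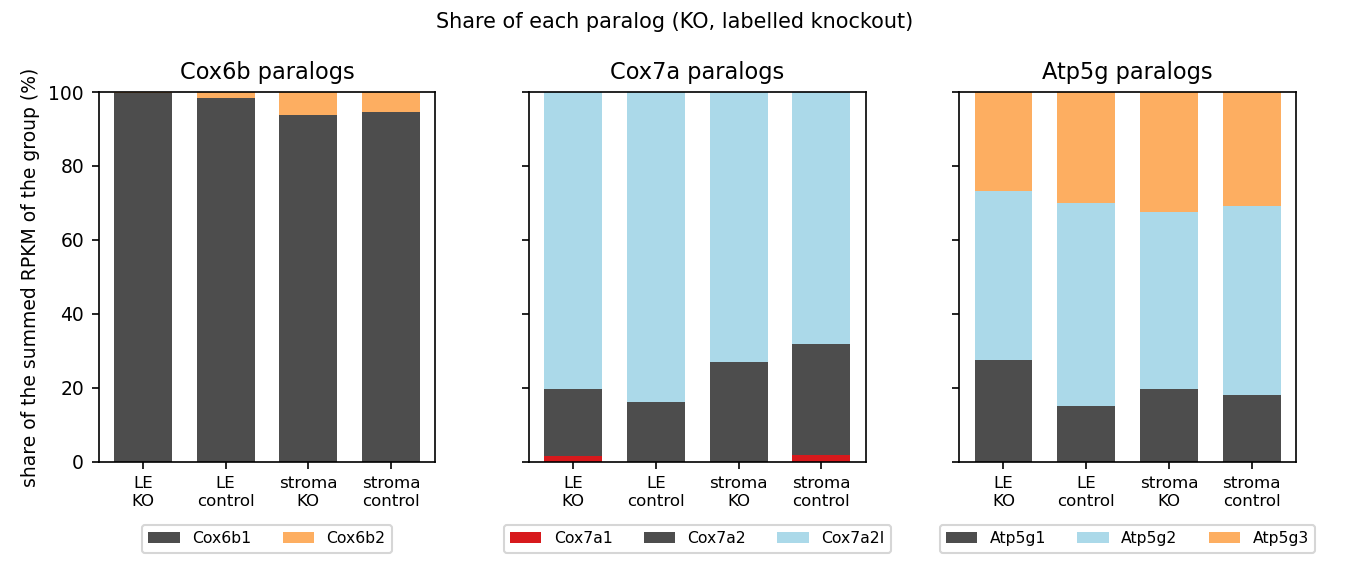
Stacked bars give the share (%) of the summed RPKM of the Cox6b, Cox7a and Atp5g paralogs taken by each gene, with LE labelled knockout, LE control, stroma labelled knockout and stroma control from left to right. Cox6b2 reaches 6.12% in stroma labelled knockout and 5.45% in stroma control, Cox7a2l takes the largest part of the Cox7a sum in all 4 libraries, and Atp5g1 is largest in LE labelled knockout at 27.5%.

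Promoter sequences were compared next. RefSeq windows on GRCm38.p6, from 250 bases before to 50 bases after the start, were matched for 66 of the 81 genes, with 71 windows in all. They are printed in lower case, 5′ to 3′ on the gene's strand, for a common and a muscle form of the same subunit (Cox8a and Cox8b), for a gene with both recognition motifs described next (Sdhd) and for the member with the widest gap between LE and stroma in both pairs apart from Ndufs5, which is listed at 0 in stroma control (Ndufc2). Capitals mark CCGGAAG, the motif bound by GABPA and other ETS factors, read as CTTCCGG on the other strand. They also mark the NRF1 motif, GCGCA and GCGC with any 1 base between them, and the letters TATAAA, wherever in the window they lie. The windows are chr19:7217567-7217866 (minus strand) for Cox8a, chr7:140900397-140900696 (minus) for Cox8b, chr9:50603800-50604099 (minus) for Sdhd and chr7:97399753-97400052 (plus) for Ndufc2.
Cox8a: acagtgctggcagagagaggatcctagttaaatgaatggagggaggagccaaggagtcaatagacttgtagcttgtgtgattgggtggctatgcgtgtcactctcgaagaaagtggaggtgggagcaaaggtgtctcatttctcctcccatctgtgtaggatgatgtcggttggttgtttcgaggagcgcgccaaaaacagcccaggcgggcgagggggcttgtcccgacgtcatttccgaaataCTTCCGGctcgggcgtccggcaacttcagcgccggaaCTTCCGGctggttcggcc
Cox8b: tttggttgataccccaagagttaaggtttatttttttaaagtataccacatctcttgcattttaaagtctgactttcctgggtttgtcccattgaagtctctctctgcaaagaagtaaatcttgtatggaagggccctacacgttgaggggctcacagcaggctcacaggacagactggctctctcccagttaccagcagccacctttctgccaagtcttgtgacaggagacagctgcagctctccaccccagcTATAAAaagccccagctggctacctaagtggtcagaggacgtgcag
Sdhd: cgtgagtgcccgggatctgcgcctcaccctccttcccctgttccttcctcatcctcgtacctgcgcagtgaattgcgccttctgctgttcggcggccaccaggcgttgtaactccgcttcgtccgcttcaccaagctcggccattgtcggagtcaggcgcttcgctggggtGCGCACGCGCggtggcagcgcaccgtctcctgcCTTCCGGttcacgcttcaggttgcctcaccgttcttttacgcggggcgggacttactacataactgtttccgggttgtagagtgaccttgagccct
Ndufc2: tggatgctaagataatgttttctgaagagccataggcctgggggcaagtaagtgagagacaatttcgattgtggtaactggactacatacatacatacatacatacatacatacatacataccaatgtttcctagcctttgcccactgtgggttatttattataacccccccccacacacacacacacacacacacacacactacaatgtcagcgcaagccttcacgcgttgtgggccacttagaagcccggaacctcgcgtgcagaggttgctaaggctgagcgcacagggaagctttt

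The Cox8a window held 2 matches to CCGGAAG and no TATAAA. The Cox8b window held TATAAA, 4 bases past the annotated start and not before it, and neither of the other motifs. Other complex IV isoforms varied. Cox6b1 held CCGGAAG and Cox6b2 matched no motif, while Cox7b2 held TATAAA and Cox7b matched no motif. Cox7a1, Cox7a2 and Cox7a2l matched none, so the Cox8 pair does not stand for the other isoforms. Sdhd held 1 match to the NRF1 motif and 1 to CCGGAAG. Ndufc2 matched none of the motifs searched. NRF1 and GABPA are known in mammals as regulators of nuclear genes for the respiratory chain. Searched on both strands, the NRF1 motif was in 18 of the 71 member windows (25.4%), against 4.60% of all 32851 windows and 13.0% of the 4868 windows of genes at 1 RPKM or more in all 4 libraries. CCGGAAG was in 16 member windows (22.5%), against 8.86% of all windows and 21.9% of those of expressed genes. The YY1 motif AAGATGGC was in 9 member windows (12.7%), against 2.75% of all windows and 6.12% of those of expressed genes. Of the 9, 7 belonged to complex I, which gave 34 of the 71 member windows. TATAAA was in 8 member windows (11.3%), against 13.6% of all windows and 6.35% of those of expressed genes. Windows of the same gene can overlap and are not independent. The Ndufa7 windows hold the same TATAAA, and the Ndufa5 windows hold the same NRF1 match. The MEF2 motif, CTA and TAG with any 4 bases between them, known from muscle genes, was in 1.41% of member windows, against 3.69% of all windows and 2.75% of those of expressed genes. A match is a description of letters, not a binding site.

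The first comparison asked how the members differed between the LE libraries of the labelled knockout and the control. Most differences were small. Of the 81 members, 74 averaged 1 RPKM or more across the pair and were kept, and the other 7 were the tissue isoforms named above. The median log2 difference, taken as log2((labelled knockout + 1)/(control + 1)), was 0.16 over the kept members and 0.10 over all 7736 kept genes. A positive difference was found for 54 members (73.0%), against 61.9% of all kept genes. At least 2-fold, 2 members were higher in the labelled knockout, where 5.03% of all kept genes were, and 1 was lower, where 1.99% were (3 either way, against 7.02% of all kept genes). The complex medians were 0.26 for I, 0.29 for II, 0.10 for III, 0.15 for IV and 0.15 for V. These medians depend on the scale: divided by the RPKM sum without the 50 most abundant genes, the median was -0.07 over the members and -0.09 over all kept genes, with 31 of the 74 members above 0. Stromal markers summed to 5.59 RPKM in LE labelled knockout and 13.7 RPKM in LE control, with 1 of 10 at 1 RPKM or more in LE labelled knockout, 5 of 10 in LE control and none listed at 0, against 548 RPKM in stroma labelled knockout and 382 RPKM in stroma control. Their part in the LE differences was not tested.

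The genes past 2-fold in LE were all short subunits of complex I. Ndufb2, an accessory subunit of the membrane arm, was at 14.0 RPKM in LE labelled knockout and 5.86 RPKM in LE control (ratio 2.38, 95% counting limits 1.22 to 4.77). Ndufa1, an X-linked membrane-arm subunit needed for assembly, was at 11.3 RPKM in LE labelled knockout and 5.06 RPKM in LE control (ratio 2.23, counting limits 1.08 to 5.67). The LE control values stood for about 10 reads of Ndufb2 and 7 of Ndufa1, and the limits cover counting error only. Under both other scalings the log2 differences fell under 1, at 0.91 without the 50 most abundant genes and 0.98 by the upper quartile for Ndufb2, and at 0.80 and 0.88 by those scalings for Ndufa1. In stroma Ndufb2 was at 7.03 RPKM in the labelled knockout and 5.08 RPKM in the control, and Ndufa1 at 6.88 RPKM in the labelled knockout and 5.82 RPKM in the control.

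The genes past 2-fold in LE all had transcripts under 600 nt, counting Ndufs5 described next. Members had a median transcript length of 731 nt, against 2498 nt over all genes with a length, and 27 of the 81 were under 600 nt. In the LE pair, 3 of the 22 kept members under 600 nt were at least 2-fold apart (13.6%) and 0 of the 52 longer ones. Among all kept genes under 600 nt, 21 of 155 were (13.5%), against 5.14% of longer genes. The share among short members was thus close to that among short genes at large. In LE control, 8 of the 74 kept members rested on under 20 estimated reads, and the median was 57 reads, against 911 in LE labelled knockout.

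Ndufs5, an accessory subunit of complex I, was the member that was lower in LE. It was at 4.65 RPKM in LE labelled knockout and 12.2 RPKM in LE control (ratio 0.380, counting limits 0.251 to 0.617), from about 137 estimated reads in the labelled knockout and 25 in the control. In stroma it was at 3.02 RPKM in the labelled knockout and listed at 0 in the control. The value of 0 is set apart from all other kept members, the lowest of which in stroma control was Ndufa11 at 1.05 RPKM, and may be a failed estimate. Rpl26, a ribosomal protein that every cell uses, was likewise listed at 0 in both controls, with 1.33 RPKM in LE labelled knockout and 3.02 RPKM in stroma labelled knockout. No fold is given for Ndufs5 in stroma, its log2 difference there, 2.01, is set by the pseudocount, and its direction in stroma rests on that 0. The locus of Ndufs5 (chromosome 4, 123389953 to 123395429, mm9) overlaps that of BC002163. BC002163 was at 1.76 and 1.49 RPKM in labelled knockout and control LE and 1.45 and 1.38 RPKM in labelled knockout and control stroma, and the sum of the pair was 6.41 and 13.7 RPKM in labelled knockout and control LE and 4.47 and 1.38 RPKM in labelled knockout and control stroma. How reads were divided between them was not tested.

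In stroma most differences between the labelled knockout and the control were small as well. Of the 81, 76 were kept, with a median log2 difference of 0.10, against 0.07 over all 7723 kept genes. A positive difference was found for 52 (68.4%), against 64.2% of all kept genes. By the upper quartile the median was 0.00 over members, with 38 of the 76 above 0, and -0.01 over all kept genes. Without the 50 most abundant genes it was 0.04 over members, with 44 of the 76 above 0, and 0.02 over all kept genes. Only Ndufs5, listed at 0 in stroma control, was at least 2-fold higher, where 1.45% of all kept genes were, and 0 members were lower, where 1.59% were (1 either way, against 3.04%). Without Ndufs5 the count was 0. The other kept members lay between -0.36, for Ndufa3, and 0.57, for Ndufb9, both accessory subunits of complex I. Ndufa3 was at 13.3 RPKM in stroma labelled knockout and 17.3 RPKM in stroma control, and Ndufb9 at 11.3 RPKM in stroma labelled knockout and 7.25 RPKM in stroma control. The complex medians were 0.11 for I, -0.01 for II, 0.00 for III, 0.10 for IV and 0.13 for V. Whether the 2 compartments differ in spread was not tested, and the LE pair has the shallow control.

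**Figure D3:**
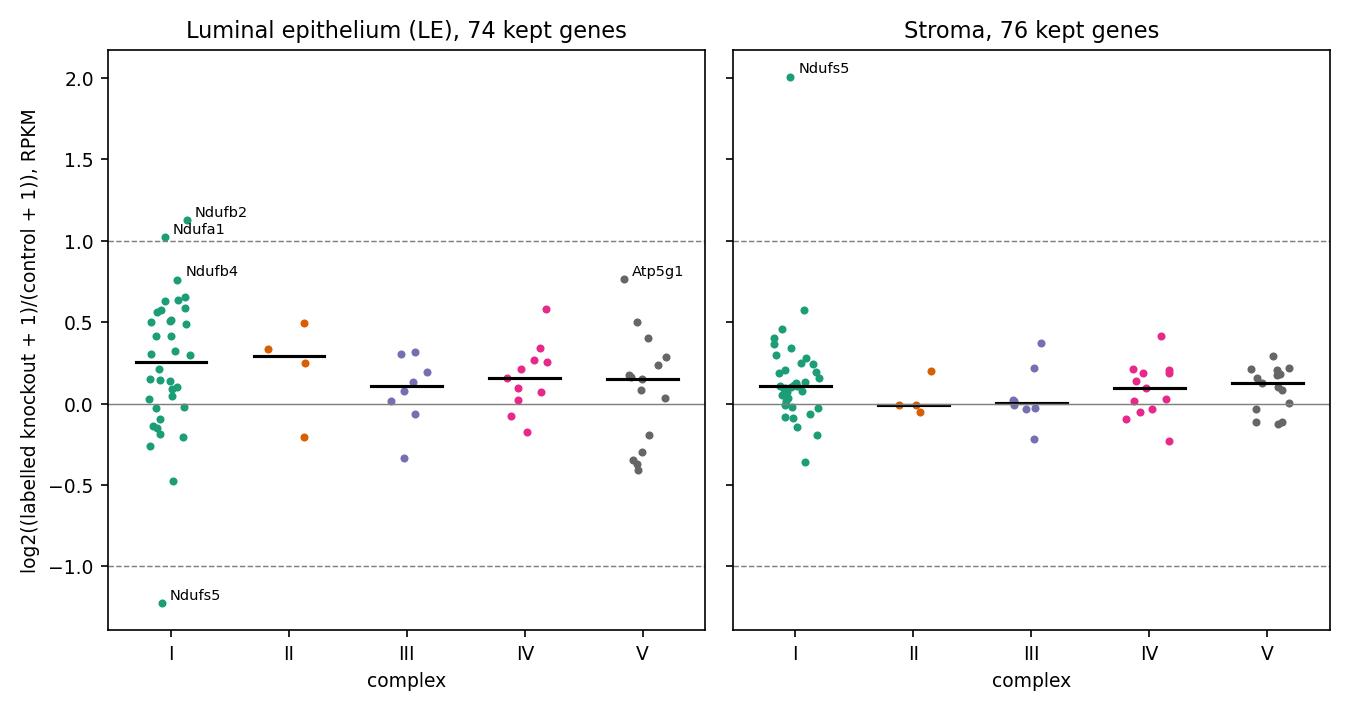
Each point is 1 kept gene, its height log2((labelled knockout + 1)/(control + 1)) of RPKM, by complex, for LE on the left and stroma on the right; black bars are medians and dashed lines mark 2-fold. Ndufb2, Ndufa1 and Ndufs5 lie past 2-fold in LE and Ndufs5 alone in stroma, where it is listed at 0 in the control.

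The authors' deposited table called none of the 81 members significant in either compartment, with 94 genes called in LE and 5 in stroma over all genes. Its lowest q-value among members was 0.371 in LE and 0.367 in stroma, in both cases for Cox7a1, which the reads above do not settle. The authors' deposited table gave a completed comparison for 76 members in LE and 77 in stroma, and 0 members had an unadjusted p-value under 0.05 in either. These values compare 1 library with 1 library, so they cannot measure spread between animals.

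Related gene groups gave the setting of these differences in the labelled knockout against control. Assembly factors had a median log2 difference of 0.22 in LE (19 kept of 28) and 0.00 in stroma (16 kept). Acad9, a complex I assembly factor, was at 8.96 RPKM in LE labelled knockout and 3.88 RPKM in LE control. It was the single assembly factor past 2-fold, or 5.26% of the 19 kept in LE. That share was close to the 5.03% of all kept genes at least 2-fold higher there. Pyruvate dehydrogenase and TCA cycle genes had 0.07 in LE and 0.11 in stroma, with 0 past 2-fold in either. Regulators of mitochondrial biogenesis had -0.04 in LE, with 5 of the 11 kept above 0 and 6 below, and 0.03 in stroma. Among the lower ones in LE labelled knockout and control were Esrra at 3.14 and 4.79 RPKM, Nrf1 at 1.46 and 2.28 RPKM, and Gabpa at 1.47 and 2.28 RPKM. Tfb2m went the other way, at 1.78 RPKM in LE labelled knockout and 1.17 RPKM in LE control. Mitochondrial ribosomal proteins had 0.23 in LE and 0.10 in stroma, with 2 of 72 at least 2-fold higher in LE, where 5.03% of all kept genes were, and 0 of 72 in stroma, where 1.45% were. One of the 2, Mrps28, was at 2.57 RPKM in LE labelled knockout and listed at 0 in LE control. Cytosolic ribosomal protein symbols had 0.19 in LE and 0.02 in stroma. Glycolysis genes had 0.45 in LE and 0.01 in stroma, with Ldhb, the B subunit of lactate dehydrogenase, at 34.9 RPKM in LE labelled knockout and 16.1 RPKM in LE control.

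The second comparison set LE against stroma within each genotype. The compartments lie in tables that were normalized separately, so these are levels set side by side. On the deposited scale members were mostly higher in LE in both genotypes, with Ndufc2 and Cox7a2l far apart and Cox6c and Ndufa5 the other way. In the libraries labelled knockout the median log2((LE + 1)/(stroma + 1)) was 0.65 over 74 kept members and 0.32 over all 8350 kept genes. In the control libraries it was 0.58 over 74 members and 0.29 over all 8030 kept genes. Members were higher in LE in 68 cases (91.9%) in the labelled knockout, against 68.1% of all kept genes, and in 65 cases (87.8%) in the control, against 65.7%. At least 2-fold, 11 members were higher in LE in the labelled knockout, where 20.7% of all kept genes were, and 0 were lower, where 10.7% were (11 either way, against 31.4%). In the control 9 were higher, or 8 without Ndufs5, where 19.6% of all kept genes were, and 1 was lower, where 12.1% were (10 either way, against 31.7%).

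The members' differences between compartments were mostly under 2-fold. They were also close to those of other abundant genes. Among genes that averaged 5 RPKM or more the median was 0.70 over members and 0.65 over all genes in the labelled knockout, and 0.65 over members and 0.53 over all genes in the control. Dividing each library by its upper quartile moved the median over all kept genes to -0.16 in the labelled knockout and -0.13 in the control, and that over members to 0.07 in the labelled knockout and 0.05 in the control, with 43 of 74 above 0 in each. The direction of many members thus depends on the scale. In these bulk captures, more RNA per cell and a different cell mixture cannot be told apart. Endothelial markers summed to 0.0712 and 0.169 RPKM in labelled knockout and control LE and 26.0 and 29.2 RPKM in labelled knockout and control stroma, and leukocyte markers to 10.9 and 20.5 RPKM in labelled knockout and control LE and 53.6 and 120 RPKM in labelled knockout and control stroma. Of the 6 endothelial markers, 0 were at 1 RPKM or more in either LE library, against 6 in stroma labelled knockout and 5 in stroma control, and in LE Emcn and Cldn5 were listed at 0 in both libraries. Of the 6 leukocyte markers, 1 was at 1 RPKM or more in LE labelled knockout, 4 in LE control and 6 in each stroma library, and none was listed at 0. Their part in the compartment differences was not tested.

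By complex, the medians in the labelled knockout were 0.87 for complex IV, 0.68 for I, 0.63 for III, 0.61 for V and 0.54 for II. In the control they were 0.70 for complex IV, 0.56 for I, 0.68 for III, 0.58 for V and 0.40 for II. All 8 genes of complex III were higher in LE in both genotypes, as were 10 of the 11 kept genes of complex IV, 13 of 15 of complex V, 29 of 36 of complex I and 2 of 4 of complex II. By the upper quartile these counts were 5 of 8 for complex III, 7 of 11 for IV, 6 of 15 for V, 17 of 36 for I and 1 of 4 for II.

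The pairs of the 2 genotypes share no library and gave similar orders. Over 74 members, the log2 differences in the labelled knockout and in the control had Pearson's r = 0.67 and Spearman's rho = 0.75, given as a description across genes, which are not independent replicates. Over all 7528 genes kept in both, r was 0.84 and rho 0.87. The points share the normalization of each table and the gene's length. Of the 74 members, 62 were higher in LE in both genotypes (83.8%, against 61.1% of all genes), or 36 by the upper quartile, and 3, Cox6c, Ndufa5 and Ndufv1, were lower in both. On the deposited scale, 5 were at least 2-fold higher in both, namely Ndufc2, Cox7a2l, Ndufa6, Atp5f1 and Ndufa7 (6.76%, against 15.8% of all genes). Past 2-fold in the labelled knockout pair alone were Cox7a2, Cox8a, Ndufa2, Ndufa3, Ndufa13 and Sdhd. In the control pair alone they were Atp5j2, Cox5b, Ndufb8 and Ndufs5, higher in LE, and Ndufa5, lower; Ndufs5 is among them through its 0 in stroma control, which may be a failed estimate. Whether any of these differences changed with genotype was not tested.

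Ndufc2 had the widest gap of the members in both genotypes, leaving aside Ndufs5, whose stroma control value was 0. It was at 49.5 RPKM in LE labelled knockout and 8.90 RPKM in stroma labelled knockout (ratio 5.57, counting limits 4.90 to 6.34). In the control libraries it was at 55.1 RPKM in LE and 8.24 RPKM in stroma (ratio 6.69, counting limits 5.36 to 8.32). Both LE values were thus above both stroma values, and the genotypes stood close together in each compartment. Under the upper-quartile scaling the log2 difference was 1.76 in the labelled knockout and 2.06 in the control.

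Cox7a2l, known for joining complexes III and IV in respiratory supercomplexes, came next. It was at 60.3 RPKM in LE labelled knockout and 16.6 RPKM in stroma labelled knockout (ratio 3.63, counting limits 3.38 to 3.89). In the control libraries it was at 57.3 RPKM in LE and 14.5 RPKM in stroma (ratio 3.96, counting limits 3.44 to 4.55). Its paralog Cox7a2 was at 13.5 and 11.0 RPKM in labelled knockout and control LE and 6.12 and 6.40 RPKM in labelled knockout and control stroma. Cox7a2l therefore made 80.3% and 83.9% of the Cox7a sum in labelled knockout and control LE and 73.1% and 68.1% in labelled knockout and control stroma, a ratio within each library that no scaling alters.

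The other members past 2-fold in both genotypes on the deposited scale were nearer to 2-fold. By the upper quartile all of them fell under it in both genotypes. Their log2 differences in the labelled knockout and the control were then 0.78 and 0.88 for Ndufa6, 0.64 and 0.47 for Ndufa7, and 0.81 and 0.67 for Atp5f1. Ndufa6, an accessory subunit of the matrix arm of complex I, was at 25.8 and 29.5 RPKM in labelled knockout and control LE and 9.33 and 10.4 RPKM in labelled knockout and control stroma. Ndufa7, also of the matrix arm, was at 30.8 and 20.3 RPKM in labelled knockout and control LE and 12.4 and 9.60 RPKM in labelled knockout and control stroma. Atp5f1, subunit b of the stalk that holds the ATP synthase head still, was at 25.4 and 22.7 RPKM in labelled knockout and control LE and 8.99 and 9.24 RPKM in labelled knockout and control stroma. Its locus overlaps Wdr77, which was at 9.49 and 6.45 RPKM in labelled knockout and control LE and 2.96 and 2.72 RPKM in labelled knockout and control stroma, and reads of the 2 may have been divided between them. Other members with an overlapping locus were Atp5b, Cox6a2, Ndufa2, Ndufa13, Ndufb11, Ndufs1 and Uqcrc2. The levels of their partners varied. Rbm10, the partner of Ndufb11, was at 4.36 and 2.92 RPKM in labelled knockout and control LE. Mir677, the partner of Atp5b, was listed at 0 in all 4 libraries. The reference list of gene names also holds named pseudogenes of Atp5c1 (1) and Atp5l (2). How reads were divided in these cases was not tested.

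A few members stood higher in stroma. Cox6c, a structural subunit of complex IV, was at 34.6 RPKM in LE labelled knockout and 61.7 RPKM in stroma labelled knockout (ratio 0.561, counting limits 0.514 to 0.611). In the control libraries it was at 28.8 RPKM in LE and 46.1 RPKM in stroma (ratio 0.626, counting limits 0.470 to 0.829). It was the most abundant member in both stroma libraries. Ndufa5, a matrix-arm subunit of complex I, was at 2.42 and 1.28 RPKM in labelled knockout and control LE and 4.48 and 4.23 RPKM in labelled knockout and control stroma. The LE control value of Ndufa5 stood for about 5 estimated reads. Ndufv1, given above, differed little, with ratios of LE to stroma of 0.866 in the labelled knockout and 0.780 in the control.

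**Figure D4:**
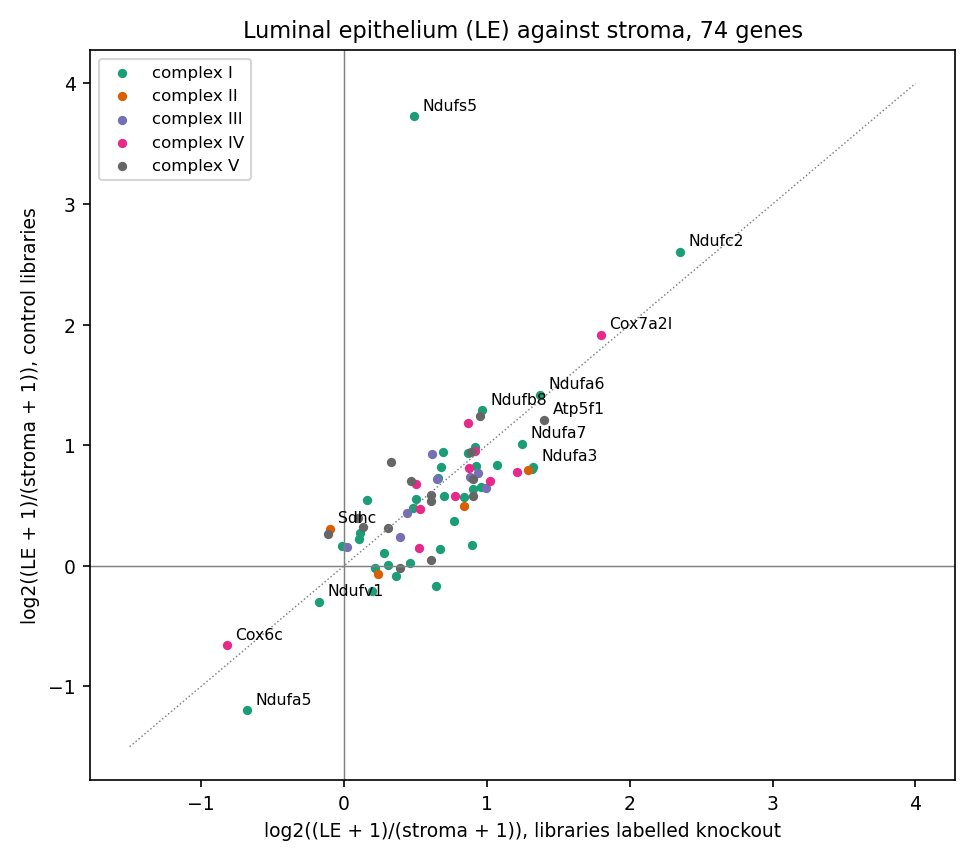
Each point is 1 of 74 kept genes, placed by log2((LE + 1)/(stroma + 1)) in the libraries labelled knockout (x) and in the control libraries (y), coloured by complex, with a dotted line of equal values. Most points lie in the upper right, Ndufc2 and Cox7a2l are high in both, Cox6c and Ndufa5 are below 0 in both, and Ndufs5, listed at 0 in stroma control, lies far from the line.

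Other mitochondrial genes did not all follow the members. For subunits and associated proteins outside the symbol rule, the median log2 difference of LE against stroma was 0.20 in the labelled knockout (7 kept of 11). In the control it was 0.13 (8 kept). Both were under the medians over all kept genes, 0.32 in the labelled knockout and 0.29 in the control. Subunits and associated proteins outside the symbol rule ranged widely: Usmg5, a small ATP synthase subunit, was at 50.4 and 53.3 RPKM in labelled knockout and control LE and 13.4 and 13.1 RPKM in labelled knockout and control stroma, while Atpif1, the inhibitor of the ATP synthase, was at 10.4 and 5.46 RPKM in labelled knockout and control LE and 16.9 and 15.4 RPKM in labelled knockout and control stroma. Ndufa4l2, a relative of Ndufa4 known from hypoxic cells, was listed at 0 in both LE libraries and was at 1.30 and 1.16 RPKM in labelled knockout and control stroma. The median log2 difference of LE against stroma was 0.19 in the labelled knockout and 0.02 in the control for pyruvate dehydrogenase and TCA cycle genes. Citrate synthase (Cs) was at 15.1 and 17.9 RPKM in labelled knockout and control LE and 8.12 and 6.77 RPKM in labelled knockout and control stroma, and Idh2, which makes mitochondrial NADPH, was at 0.941 and 0.849 RPKM in labelled knockout and control LE and 8.22 and 6.90 RPKM in labelled knockout and control stroma.

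Assembly factors had medians of 0.40 in the labelled knockout and 0.28 in the control, with Cox17, a copper chaperone for complex IV, at 13.6 and 11.5 RPKM in labelled knockout and control LE and 2.58 and 3.83 RPKM in labelled knockout and control stroma. Mitochondrial ribosomal proteins had 0.33 in the labelled knockout and 0.26 in the control, and cytosolic ribosomal proteins 0.04 in the labelled knockout and -0.15 in the control. Regulators of mitochondrial biogenesis had 0.06 in the labelled knockout and 0.23 in the control, with Esrra, a nuclear receptor known to act on respiratory genes, at 3.14 and 4.79 RPKM in labelled knockout and control LE and 0.797 and 0.841 RPKM in labelled knockout and control stroma. Glycolysis genes had 0.49 in the labelled knockout and 0.34 in the control. Among carriers and porins, with 0.36 in the labelled knockout and 0.34 in the control, Ckmt1, the mitochondrial creatine kinase of non-muscle tissues, was at 15.2 and 11.2 RPKM in labelled knockout and control LE, and was listed at 0 in stroma labelled knockout and at 0.0765 RPKM in stroma control. Slc25a4, the heart and muscle form of the ADP/ATP carrier, was at 15.1 and 14.6 RPKM in labelled knockout and control LE and 26.3 and 23.8 RPKM in labelled knockout and control stroma.

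**Figure D5:**
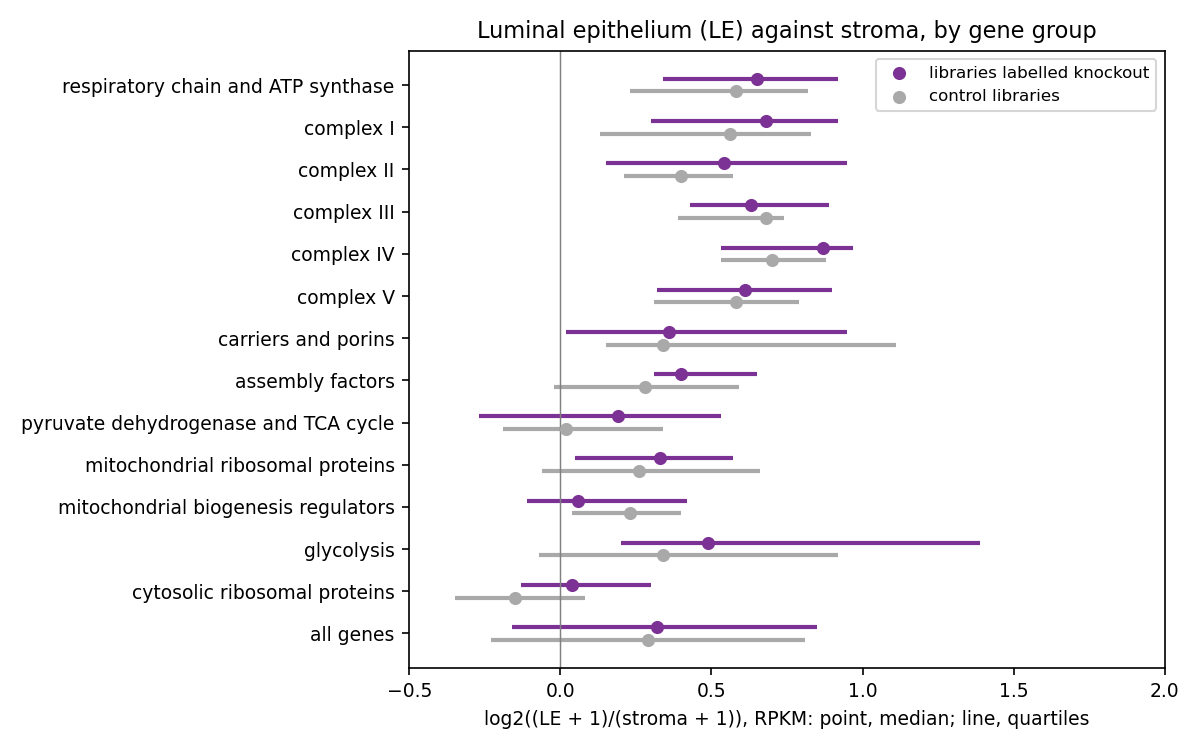
Points give the median and lines the quartiles of log2((LE + 1)/(stroma + 1)) over the kept genes of each group, for the libraries labelled knockout and the control libraries. The respiratory chain and ATP synthase stand at 0.65 in the labelled knockout and 0.58 in the control, and all genes at 0.32 in the labelled knockout and 0.29 in the control. Subunits and associated proteins outside the symbol rule are not drawn.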

How the data were processed

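RNA was measured in 4 libraries, 1 per group. Per the file headers, the authors deposited 1 table per compartment with RPKM for the labelled knockout and the control, and the p-value and q-value of their own comparison. Per the submitters' processing notes, CASAVA 1.8.2, TopHat2 2.0.5, Cufflinks 2.0.2 and mm9 were used; their settings are not given in the sources used here. Members and gene lists were chosen with earlier results of these data known.

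Differences are log2((first + 1)/(second + 1)) of RPKM, which understates low genes, over genes that averaged 1 RPKM or more in the pair. A log2 difference of at least 1 counts as 2-fold; ratios use RPKM without a pseudocount. With 1 library per group no test was made. Values in every library were given for members past 2-fold between genotypes, listed at 0, high or low in a complex, paralogous or of complex II; other genes were taken from the lists by size of difference, and further genes with their values in view.

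Depth was fitted from low RPKM times transcript length less 200 nt (GENCODE vM21 lengths, transcripts over 1500 nt), and 55.9% to 59.8% of those values lay within 0.2 of a whole read, where evenly spread values would give 40%. The fit used the same values, so reads and the limits made from them are approximate. Counting limits are 95% Clopper-Pearson limits on estimated reads; amplified reads are not independent molecules. Steps were tested on simulated data, with changes planted only in transcripts over 1500 nt, so short members were not covered as changed genes. The work ran in Python 3.11.15 (pandas 2.3.3 and numpy 2.4.6 for tables, scipy 1.17.1 for limits, matplotlib 3.10.9 for plots). The alternatives were 3 pseudocounts, 3 scalings, 3 minimums, a smaller fold, the mean, zeros or small RNA left out and, chosen after seeing the data, Ndufs5 or transcripts under 600 nt left out.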

Additional observations from a re-analysis of the deposited data

Results flagged for a closer look

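Ndufs5 had log2 differences of opposite sign in the 2 compartments. Its log2 difference between the labelled knockout and the control was -1.23 in LE and 2.01 in stroma. The difference between the compartments was not tested. The stroma value and its sign rest on a control value listed at 0, so no direction was measured there.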

How the results depend on the processing

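No paired analysis was possible because the labels carry no replicate numbers and each group has 1 library, which also left no library to leave out. The design text gives 1 mouse per genotype, so LE and stroma may pair by mouse; those differences are set side by side, and no model over genotype and compartment was fitted. In LE, labelled knockout against control, the median log2 difference over members (0.16) was -0.07 when scaled without the 50 most abundant genes and 0.00 when scaled by the upper quartile, as the median over all genes moved to -0.09 and -0.03. The 3 members past 2-fold became 0 with a pseudocount of 5 RPKM, 1 with either scaling, 0 without transcripts under 600 nt and 9 at 1.5-fold. In stroma the 1 member became 0 with a pseudocount of 5 RPKM, a minimum of 5 RPKM, zeros left out, Ndufs5 left out or transcripts under 600 nt left out. For LE against stroma in the labelled knockout, the median (0.65) was 0.48 with a pseudocount of 5 RPKM, 0.26 without the 50 most abundant genes and 0.07 with the upper quartile. Relative to all genes (0.34) it was 0.23 with the upper quartile, 0.05 with a minimum of 5 RPKM and 0.62 with no minimum. The 11 members past 2-fold became 4 with either scaling and 6 without transcripts under 600 nt. In the control the median (0.58) was 0.47 with a pseudocount of 5 RPKM, 0.35 without the 50 most abundant genes and 0.05 with the upper quartile. Relative to all genes (0.29) it was 0.13 with a minimum of 5 RPKM and 0.55 with no minimum, and the 10 members past 2-fold became 5 with the upper quartile. The cause of these shifts was not tested. The other 95 summary values moved by under 0.1, or by up to 1.5 times for counts, which leaves room for a median of 0.10 in stroma to become 0.00 by the upper quartile. Of 100 values of single genes, 60 stayed past 2-fold and 40 fell under it without a change of sign. With a pseudocount of 0.1 RPKM Ndufs5, with its 0 in stroma control, was 4.96 in stroma (2.01 as reported) and 6.95 between LE and stroma in the control (3.73), and with 5 RPKM it was 0.68 in stroma. Depth limits short transcripts most in LE control.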
